A study of Mus musculus with 10 samples.

Results

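The 10 genes described here, H19, Igf2, Igf2r, Dlk1, Meg3, Peg3, Mest, Cdkn1c, Grb10 and Plagl1, are imprinted genes with roles in growth, and they were taken by name from a table of 23337 genes. All 10 were in the table. RNA was sequenced from sorted cardiomyocytes (heart muscle cells) of mice at postnatal day 14, 5 samples with the genotype Actn2-FF (knockout) and 5 with Actn2-F+ (heterozygote, the control). Actn2 encodes alpha-actinin-2, which crosslinks actin at the sarcomere's Z-line, and F is its floxed allele. Mice of both groups received the virus AAV9-cTNT-Cre on postnatal day 1, so the controls also carried Cre and 1 floxed allele. Cre was driven by a cardiac troponin T promoter, which limits it to cardiomyocytes. The design text states 5 biological replicates per group, while the labels do not say whether these came from 5 mice. The p-values measure the spread between these samples.

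An imprinted gene is transcribed mainly from the copy inherited from 1 parent. The parental copies are told apart by DNA methylation or chromatin marks set in the germ line. Paternally expressed genes of this kind, such as Igf2, tend to promote fetal growth. Maternally expressed ones, such as Igf2r, Cdkn1c, Grb10 and H19, tend to restrain it. Many are abundant in fetal organs and fall to low levels after birth. Read counts per gene do not separate the parental copies, so every value below is a sum over both. No other age was analysed here, so a fall after birth could not be examined.

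In the knockout samples 2 members rose, under every alternative run, and 1 fell by a call that did not hold under many of them. Grb10 and Igf2r, which encode an adaptor that dampens insulin and IGF receptor signalling and the receptor that clears IGF2, were at 2.05 and 2.01 times the heterozygote mean. Cdkn1c, which encodes the cell-cycle inhibitor p57, was at 0.593 times. Its log2 fold change of -0.75 was -0.44 without heterozygote 4 and -0.22 with an endothelial covariate, and the call was absent in 7 of 10 leave-one-out fits. H19, Igf2 and Mest had lower means without passing the test, and for these as for Cdkn1c heterozygote 4 was the highest of its group. Normalised read counts are given as CPM, read counts scaled to a common library size with TMM factors, and the test was edgeR's quasi-likelihood test adjusted over 11870 genes.

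Total counts ran from 8086656 to 25237696 per sample. Actn2 was at 1145 to 1286 CPM in the knockouts and at 2677 to 3474 CPM in the heterozygotes, lower in every knockout as its label says. The 8 cardiomyocyte markers (such as Myh6 and Tnnt2) summed to 93811 to 122536 CPM per sample. Of the 8, 7 had negative log2 fold changes, and Tnni3, the cardiac troponin I gene, was called lower at 0.693 times the heterozygote mean with the groups apart (edgeR adjusted p = 0.00165). The 10 endothelial markers summed to 485 to 775 CPM in heterozygotes and 320 to 568 CPM in knockouts, and the 10 fibroblast markers to 317 to 528 and 310 to 639 CPM. Of 5 erythroid markers listed, 3 were among the counted genes. The globin genes Hbb-b1 and Hba-a1 were at 0 in every sample, and Alas2 alone was detected, at up to 1.15 CPM. Whether the globin values of 0 came from the counting was not tested, so they do not show that blood cells were absent. In a pool of cells, fewer cells of a type and less RNA per cell cannot be told apart.

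Of the 10 members, 9 passed the filter on low counts and Dlk1 did not. An adjusted p below 0.05 was reached by 3 of the 9, 2 higher and 1 lower in the knockout. The background was 18.9% of all tested genes called, 10.2% higher and 8.64% lower. The median log2 fold change of the 9 members was 0.13, against 0.0023 over all tested genes.

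Levels of different genes are compared per kilobase of exon (CPM per kb). In heterozygotes Grb10 stood highest at 50.6 ± 5.20 CPM per kb (SD, n = 5), above 88.2% of tested genes. Mest (15.3 ± 4.76), Igf2r (15.2 ± 1.27) and Igf2 (10.8 ± 5.71 CPM per kb) came next, and their ranges overlapped in that order. Cdkn1c (6.43 ± 2.86), Plagl1 (5.34 ± 1.65), Peg3 (3.50 ± 0.525) and H19 (2.60 ± 2.44 CPM per kb) followed, each with a range that overlapped its neighbour's. Meg3 (0.247 ± 0.0555) and Dlk1 (0.123 ± 0.0213 CPM per kb) lay below the range of every other member. At this age the group thus ran from an abundant transcript to one at the limit of detection. The genes were grouped under the name "silenced after birth", which 1 age cannot examine. Mest, Igf2r and Igf2 were above 67.2%, 67.0% and 59.1% of tested genes. Heterozygote 4 raised the means of Mest and Igf2, at 65.8 and 87.8 CPM against means of 36.7 and 35.4 CPM in the other heterozygotes. In knockouts Grb10 (104 ± 8.25) and Igf2r (30.4 ± 4.80 CPM per kb) took the first and second places with ranges apart from each other and from Mest (10.5 ± 3.08), and Cdkn1c (3.81 ± 0.571 CPM per kb) had a lower mean than Plagl1 and Peg3, with overlapping ranges.

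**Figure D1:**
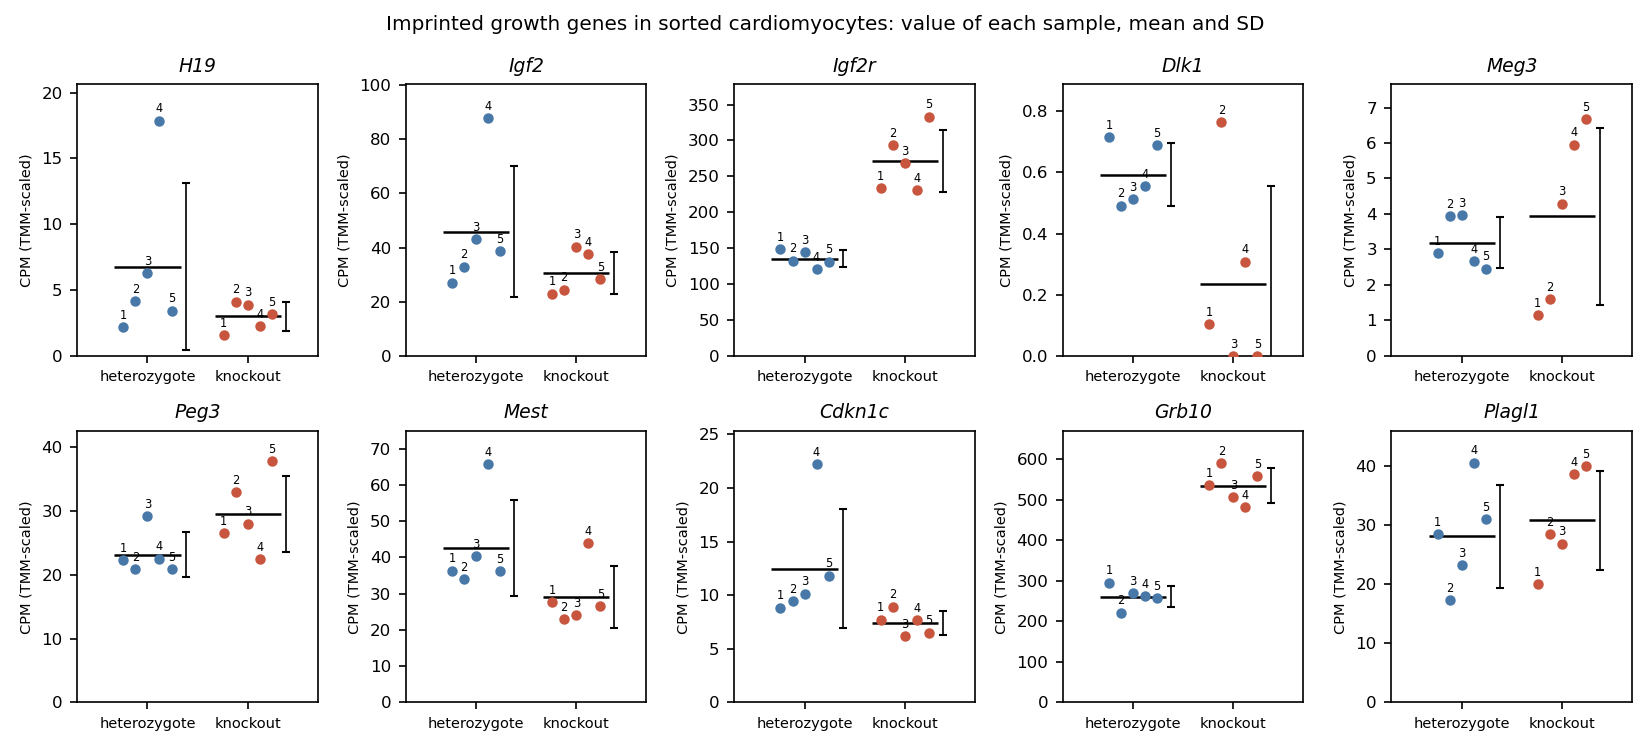
Normalised read count (CPM, linear axis from 0) of each member in every sample, numbered by replicate, with the group mean (line) and SD (bar, n = 5, cut off at 0 for Dlk1). The knockout points of Igf2r and Grb10 all lie above the heterozygote points, and heterozygote 4 is the highest heterozygote for H19, Igf2, Mest, Cdkn1c and Plagl1.

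The regulatory starts of the 2 members that rose are shown first. The sequences are from RefSeq (build GRCm38.p6) and run from 250 bases before to 50 bases after an annotated start. They are written 5′ to 3′ on the gene's own strand, with every CG dinucleotide in capitals.
Igf2r, chr17:12769657-12769956, minus strand: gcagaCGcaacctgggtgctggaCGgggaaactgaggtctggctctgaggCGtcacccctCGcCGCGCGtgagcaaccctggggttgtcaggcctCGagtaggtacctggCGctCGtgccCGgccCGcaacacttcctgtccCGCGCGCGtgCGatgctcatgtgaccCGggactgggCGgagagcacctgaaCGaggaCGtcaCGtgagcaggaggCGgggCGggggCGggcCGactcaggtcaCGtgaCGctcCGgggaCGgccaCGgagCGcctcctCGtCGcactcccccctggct
Grb10, chr11:12037371-12037670, minus strand: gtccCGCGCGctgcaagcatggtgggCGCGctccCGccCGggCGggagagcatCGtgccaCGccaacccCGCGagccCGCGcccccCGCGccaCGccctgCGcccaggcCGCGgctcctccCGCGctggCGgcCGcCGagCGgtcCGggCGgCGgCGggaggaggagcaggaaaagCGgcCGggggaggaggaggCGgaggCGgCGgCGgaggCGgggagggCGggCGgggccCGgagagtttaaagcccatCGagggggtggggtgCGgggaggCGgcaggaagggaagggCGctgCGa
The Igf2r window held 34 CG dinucleotides and 70.7% G plus C, and this Grb10 window held 45 and 80.0%. The median over all 32851 windows in the RefSeq table was 7 CG dinucleotides and 52.7% G plus C. A second annotated start of Grb10 (chr11:12027922-12028221) had 9. Read counts per gene do not show which start was used. No methylation was measured here, so the capitals do not mark methylated sites.

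Igf2r encodes the cation-independent mannose 6-phosphate receptor, which carries lysosomal enzymes and takes up IGF2 for breakdown. The gene lies on chromosome 17 at 12682406 to 12769706 of mm10, minus strand, in 48 exon blocks. It was at 149, 133, 145, 120 and 131 CPM in heterozygotes 1 to 5, and its values in knockouts 1 to 5 were 233, 294, 268, 231 and 333 CPM. Every knockout was above every heterozygote, and knockout 5 was the highest. Of the 9 tested members, 2 had every knockout above every heterozygote and 0 the reverse, against 8.41% and 6.32% of all tested genes. The means were 136 ± 11.3 and 272 ± 42.9 CPM (SD, n = 5), which differ by 1.00 on the log2 scale (edgeR adjusted p = 3.73e-05, SE 0.114).

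Grb10 encodes a growth factor receptor-bound adaptor protein. It lies on chromosome 11 at 11930499 to 12037420, minus strand, in 18 exon blocks. It was at 296, 221, 269, 262 and 257 CPM in heterozygotes 1 to 5, and its values in knockouts 1 to 5 were 536, 590, 506, 481 and 558 CPM. The lowest knockout was well above the highest heterozygote. The means were 261 ± 26.8 and 534 ± 42.5 CPM (SD, n = 5), which differ by 1.03 on the log2 scale (edgeR adjusted p = 7.11e-06, SE 0.0957). The calls of Igf2r and Grb10 held in all 10 fits that left out 1 sample and in the 8 other alternatives.

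**Figure D2:**
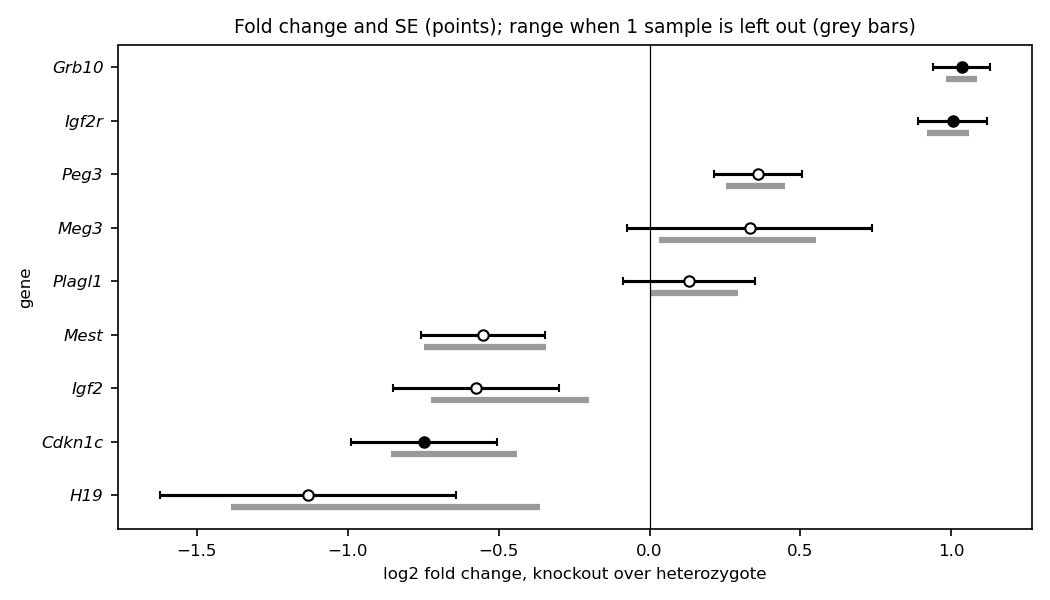
Log2 fold change (knockout over heterozygote) of the 9 tested members, with SE as black bars and filled points for an edgeR adjusted p below 0.05. Grey bars give the range over the 10 fits that left out 1 sample, and the bar of H19 runs from -1.39 to -0.36.

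Cdkn1c encodes p57, an inhibitor of cyclin-dependent kinases, and was the member that fell. It lies on chromosome 7 at 143458339 to 143461050, minus strand. It was at 8.82, 9.46, 10.1, 22.2 and 11.8 CPM in heterozygotes 1 to 5, and its values in knockouts 1 to 5 were 7.70, 8.94, 6.15, 7.70 and 6.51 CPM. The groups overlapped at 1 value, since knockout 2 was above heterozygote 1, and heterozygote 4 was far above heterozygote 5, the next sample. The log2 fold change was -0.75 (edgeR adjusted p = 0.0440, SE 0.242). It missed the threshold in 7 of 10 leave-one-out fits, those without heterozygote 4 or 5 or any knockout. Without heterozygote 4, the log2 fold change was -0.44 (edgeR adjusted p = 0.0852), and over those 7 fits the adjusted p ran from 0.0504 to 0.103. It also missed in 3 of the 8 other alternatives: the endothelial covariate described below took the log2 fold change to -0.22, while library totals and a fibroblast covariate left it at -0.68 and -0.66 (edgeR adjusted p = 0.683, 0.0768 and 0.0977).

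Igf2 and H19 are neighbours on chromosome 7, 72.6 kb apart, and share enhancers and an imprinting control region that lets the paternal copy make Igf2 and the maternal copy make H19. Igf2 encodes a fetal insulin-like growth factor and lies at 142650768 to 142661035. H19 is a long non-coding RNA at 142575532 to 142578146, and its transcript is also the precursor of miR-675. The mature forms are printed because this precursor sits inside the counted H19 transcript (RefSeq, GRCm38.p6, seed bases 2 to 8 in capitals).
mmu-miR-675-5p: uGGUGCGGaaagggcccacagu
mmu-miR-675-3p: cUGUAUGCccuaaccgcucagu
The hairpin shares 84 bases with H19 in the annotation used for counting, and reads that touch both entries count for neither. Mir675 itself was listed at 0 in all 10 samples, and these poly(A) libraries do not measure mature miRNAs.

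Igf2 was at 27.0, 32.9, 43.1, 87.8 and 38.8 CPM in heterozygotes 1 to 5, and its values in knockouts 1 to 5 were 23.0, 24.4, 40.3, 37.6 and 28.3 CPM. The groups overlapped, and heterozygote 4 was the only sample above 43.1 CPM. The log2 fold change was -0.58 (edgeR adjusted p = 0.162, SE 0.274), and -0.20 without heterozygote 4 (edgeR adjusted p = 0.497).

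H19 was at 2.18, 4.17, 6.28, 17.9 and 3.44 CPM in heterozygotes 1 to 5, and its values in knockouts 1 to 5 were 1.56, 4.12, 3.90, 2.26 and 3.17 CPM. Heterozygote 4, with 161 reads, held the highest value of both genes, and the range of the other 4 heterozygotes overlapped that of the knockouts. The log2 fold change was -1.13 (edgeR adjusted p = 0.126, SE 0.491) with all samples and -0.36 without heterozygote 4 (edgeR adjusted p = 0.514). The ratio of H19 to Igf2 per kilobase was 0.209 ± 0.0801 in heterozygotes and 0.164 ± 0.0701 in knockouts (SD, n = 5) and overlapped between the groups.

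The ratio of receptor to ligand, Igf2r to Igf2 per kilobase, was chosen after the values of both were seen and is given without a test. It was 2.61, 1.91, 1.59, 0.651 and 1.604 in heterozygotes 1 to 5, and in the knockouts it was 4.81, 5.70, 3.16, 2.92 and 5.57, in the same order. The groups were apart, as they already were for Igf2r alone, so the ratio is not a separate result. Heterozygote 4 had the lowest ratio.

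Mest, Peg3 and Plagl1 are paternally expressed. Mest, a gene of the alpha/beta hydrolase fold family on chromosome 6 (30733506 to 30748466), was at 36.4, 34.0, 40.4, 65.8 and 36.2 CPM in heterozygotes 1 to 5, and its values in knockouts 1 to 5 were 27.7, 22.9, 23.998, 43.9 and 26.7 CPM. Sample 4 was highest in each group, and the other 4 knockouts were below all heterozygotes. The log2 fold change was -0.55 (edgeR adjusted p = 0.0765, SE 0.206). Mest passed the threshold without knockout 4 (log2 fold change -0.75, edgeR adjusted p = 0.0136) and with DESeq2 (adjusted p = 0.0343). Without heterozygote 4 it was at -0.34 (edgeR adjusted p = 0.186).

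Peg3, a zinc-finger protein gene on chromosome 7 (6705960 to 6730419), was at 22.3, 20.9, 29.2, 22.5 and 20.9 CPM in heterozygotes 1 to 5, and its values in knockouts 1 to 5 were 26.6, 32.9, 28.0, 22.5 and 37.7 CPM. The groups overlapped through heterozygote 3 and knockout 4. The log2 fold change was 0.36 (edgeR adjusted p = 0.105, SE 0.146), and the gene passed narrowly without either of those samples (edgeR adjusted p = 0.0490 and 0.0484). Of its exon length, 13.1% is shared with Peg3as on the other strand, and reads there count for neither gene.

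Plagl1 encodes a zinc-finger transcription factor known to regulate other imprinted genes. It lies on chromosome 10 at 13090788 to 13131695. It was at 28.4, 17.3, 23.2, 40.5 and 31.0 CPM in heterozygotes 1 to 5, and its values in knockouts 1 to 5 were 19.99, 28.4, 26.8, 38.6 and 39.9 CPM. The groups overlapped over most of their range (edgeR adjusted p = 0.731, log2 fold change 0.13 with an SE of 0.218). The letters GGGGCCCC, a short form of the motif bound by its protein and the same on both strands, were found in 1 of the 15 start windows of the 8 members in the RefSeq table, that of Peg3. They occurred in 1.08% of all windows of that length. The CArG box, the motif of SRF, was found in 2 of the 15, 1 of Igf2 and 1 of Meg3, against 1.63% of all windows.

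Meg3 and Dlk1 lie 77.7 kb apart on chromosome 12. Meg3 is a maternally expressed long non-coding RNA (109540996 to 109571729). It was at 2.90, 3.93, 3.97, 2.66 and 2.46 CPM in heterozygotes 1 to 5, and its values in knockouts 1 to 5 were 1.15, 1.60, 4.29, 5.95 and 6.68 CPM. The knockouts enclosed the heterozygotes on both sides, and the difference did not pass (edgeR adjusted p = 0.625, log2 fold change 0.33 with an SE of 0.406). Dlk1, a paternally expressed transmembrane protein with EGF-like repeats (109452823 to 109463336), had 17, 4, 4, 5 and 7 reads in heterozygotes 1 to 5 and 1, 10, 0, 3 and 0 reads in knockouts 1 to 5. A count of 0 allows a level of up to 0.293 CPM in knockout 3 and 0.170 CPM in knockout 5, counting error only. A difference in Dlk1 was not detectable at this depth: a fit without the filter gave a log2 fold change of -1.31 (edgeR adjusted p = 0.310).

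**Figure D3:**
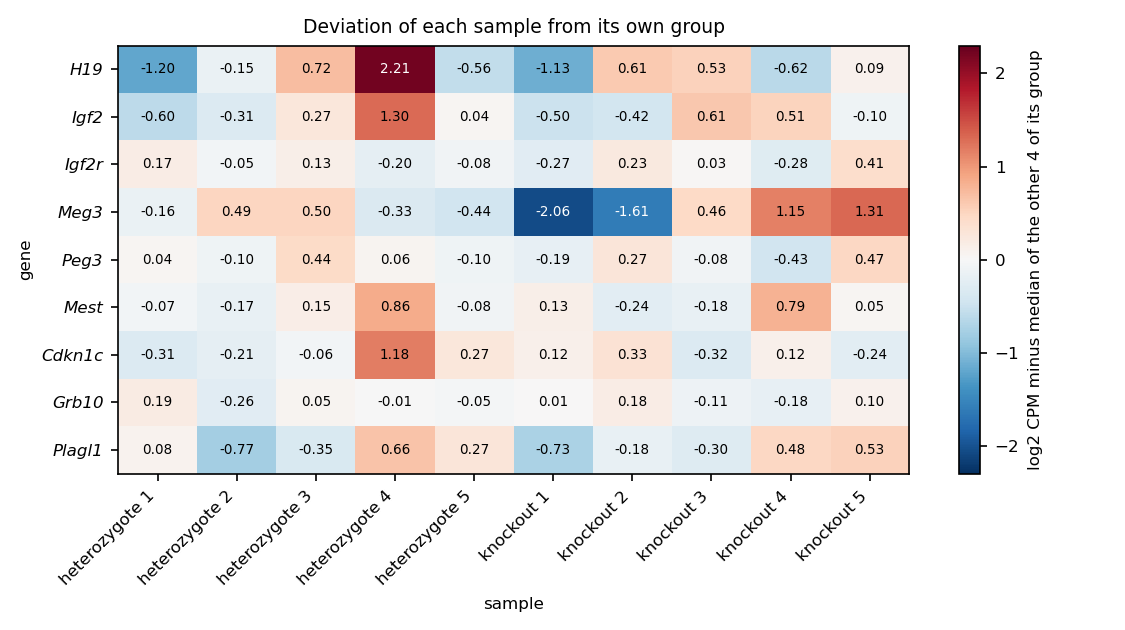
Deviation of each sample's log2 CPM from the median of the other 4 samples of its group, for the 9 tested members (rows) and 10 samples (columns). Heterozygote 4 lies above its group by 2.21 for H19, 1.30 for Igf2, 1.18 for Cdkn1c, 0.86 for Mest and 0.66 for Plagl1, and by -0.01 for Grb10.

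Heterozygote 4 was more than 0.5 (log2) above the rest of its group for 5 of the 9 tested members and more than 0.5 below it for 0. Among the other heterozygotes that count above was 0 to 2. In the knockouts, sample 4 was more than 0.5 above the rest of its group for 3 members. Knockout 1 was more than 0.5 below its group for 4 members. Grb10 and Igf2r were not among the 5 members of heterozygote 4, with deviations of -0.01 and -0.20. Without heterozygote 4, 2 of the members were called, Grb10 (log2 fold change 1.03) and Igf2r (0.96).

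Like H19, Igf2, Mest and Cdkn1c, the endothelial markers had lower means in the knockouts. All 10 had a negative log2 fold change (median -0.43), and 8 were lower at an unadjusted p below 0.05. The share of all tested genes at that unadjusted p was not computed. Of the 10, 1, Cldn5, was called lower in edgeR, beside 8.64% of all tested genes, and 4 in DESeq2, beside 1301 of 11870. The Cldn5 call was lost in 6 of the 10 leave-one-out fits. Heterozygote 4 had the highest sum of these markers (775 CPM), and knockout 4 the highest of its group (568 CPM). In a fit with the mean of this list as a covariate, the log2 fold changes were 0.22 for H19, 0.09 for Igf2, -0.09 for Mest and -0.22 for Cdkn1c (edgeR adjusted p = 0.874, 0.897, 0.851 and 0.683). In the same fit Igf2r was at 0.82 and Grb10 at 0.97 (edgeR adjusted p = 0.00250 and 0.000554). Because all 10 markers had lower means in the knockouts, that fit cannot fully separate the covariate from genotype. Over all tested genes it called 1067, against 2241 in the main fit. The part of endothelial RNA in these differences was not tested. Of the 9 fibroblast markers tested 0 were called in edgeR and 0 in DESeq2, 2 were lower at an unadjusted p below 0.05, and the median log2 fold change was -0.25. The 7 macrophage markers in the table summed to 13.4 to 36.4 CPM in the heterozygotes and to 8.03 to 10.7 CPM in the knockouts. These sums did not overlap. Of the 7, 4 were tested, all with negative log2 fold changes (median -0.87), and 3 were lower at an unadjusted p below 0.05. Csf1r alone was called lower in edgeR, beside 8.64% of all tested genes. In DESeq2, 3 were called lower, beside 1301 of 11870. Of the 5 epicardial markers 4 were tested, 0 were called in edgeR or DESeq2, 1 was lower at an unadjusted p below 0.05, and sums ran from 4.91 to 22.9 in heterozygotes and from 4.06 to 8.19 CPM in knockouts. The 22.9 CPM was that of heterozygote 4, and the other heterozygotes reached at most 12.4 CPM. The 6 smooth muscle and pericyte markers summed to 271 CPM in heterozygote 4, to 162 to 192 CPM in the other heterozygotes and to 190 to 287 CPM in the knockouts. Cspg4 of that list was at 3.58 times the heterozygote mean (edgeR adjusted p = 1.23e-06), and of the other 5 markers 4 had negative log2 fold changes. The part of these cell types in the members' values was not tested.

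Around the members lie further transcripts of imprinted clusters, and whether each is imprinted in cardiomyocytes was not examined. Of 25 listed neighbours found among the counted genes, 11 were tested, and 3 were called in edgeR, 2 higher and 1 lower, beside 10.2% and 8.64% of all tested genes, with a median log2 fold change of 0.12. Ddc, which encodes aromatic L-amino acid decarboxylase, lies 32.4 kb from Grb10 and is known as a paternally expressed gene of the heart. It was at 48.2, 37.5, 48.8, 56.2 and 64.5 CPM in heterozygotes 1 to 5, and its values in knockouts 1 to 5 were 146, 164, 185, 140 and 149 CPM. The groups were apart, and the means of 51.0 ± 10.1 and 157 ± 18.2 CPM (SD, n = 5) differed by 1.62 on the log2 scale (edgeR adjusted p = 2.59e-06, SE 0.135). Grb10 is read from the other parental copy in most tissues, and both genes were higher. The ratio of Ddc to Grb10 per kilobase was 0.402 to 0.620 in heterozygotes and 0.658 to 0.9004 in knockouts.

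Beside Igf2r, 1 neighbour was called and went the other way. Slc22a3, an organic cation transporter gene 174.7 kb away, was at 11.4, 9.46, 5.13, 6.33 and 10.5 CPM in heterozygotes 1 to 5, and its values in knockouts 1 to 5 were 4.16, 4.51, 2.24, 2.67 and 2.83 CPM. Every knockout was below every heterozygote, where the background for this direction was 6.32% of tested genes (edgeR adjusted p = 0.00205, log2 fold change -1.40 with an SE of 0.263). Airn, named for its role here and not by the rule for named genes, is the paternally expressed antisense RNA that silences Igf2r on that copy in many tissues, and overlaps the gene. It was at 3.65 to 7.77 CPM in the heterozygotes and at 5.21 to 9.28 CPM in the knockouts, and did not pass (edgeR adjusted p = 0.250, log2 fold change 0.42 with an SE of 0.241). The 2 share 0 exon bases in the annotation, but the counting did not use strand, so reads from unspliced Airn within Igf2r exons cannot be told apart from Igf2r.

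In the Cdkn1c cluster Osbpl5, an oxysterol-binding protein gene 227.7 kb away, was at 12.3 to 17.2 CPM in the heterozygotes and at 19.8 to 27.0 CPM in the knockouts. Every knockout was above every heterozygote, the direction opposite to Cdkn1c (edgeR adjusted p = 0.00193, log2 fold change 0.66 with an SE of 0.124). Kcnq1ot1, the antisense RNA of this cluster and also outside that rule, overlapped between the groups, at 8.74 to 23.3 and 4.89 to 19.8 CPM (edgeR adjusted p = 0.666, log2 fold change -0.26 with an SE of 0.349). It shares exon sequence with Kcnq1 on the other strand. The calls of Ddc, Slc22a3 and Osbpl5 held in all 10 fits that left out 1 sample and in the 8 other alternatives.

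**Figure D4:**
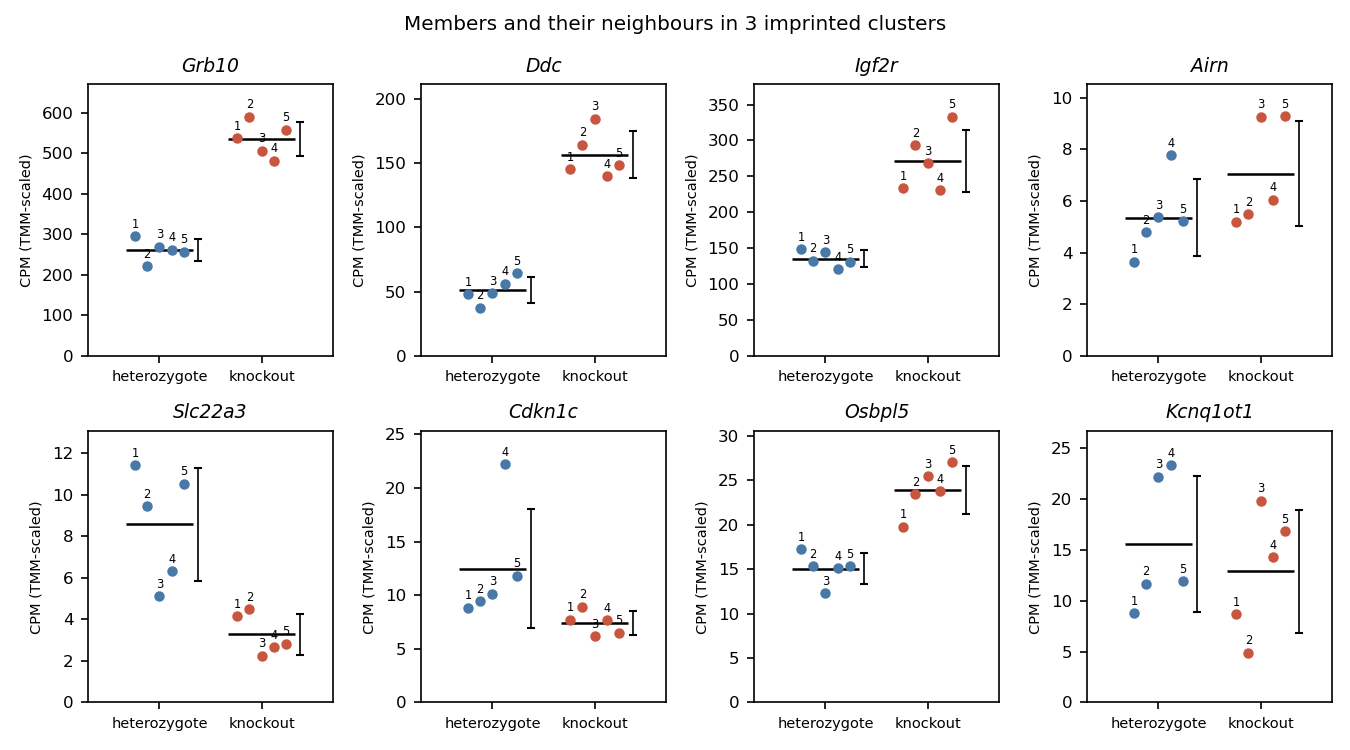
Normalised read count (CPM, linear axis from 0) in every sample, numbered by replicate, for Grb10 with Ddc, Igf2r with Airn and Slc22a3, and Cdkn1c with Osbpl5 and Kcnq1ot1; lines are means and bars SD (n = 5). The groups are apart for Grb10, Ddc, Igf2r, Slc22a3 and Osbpl5 and overlap for Airn, Cdkn1c and Kcnq1ot1.

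Genes elsewhere in the genome that are imprinted in at least some tissues were listed as a further group. Of these 33 genes 22 were tested, 1 was called higher and 1 lower in edgeR, beside 10.2% and 8.64% of all tested genes, and the median log2 fold change was 0.0079. Slc38a4, an amino acid transporter gene, was at 87.4 ± 12.1 CPM in heterozygotes and 123 ± 11.5 CPM in knockouts (SD, n = 5), and differed by 0.49 (log2, SE 0.109, edgeR adjusted p = 0.00623). Ampd3, which encodes an AMP deaminase, was at 74.1 ± 9.99 and 54.1 ± 4.57 CPM (SD, n = 5), and differed by -0.46 (log2, SE 0.107, edgeR adjusted p = 0.00840). The groups were apart for each gene, and both calls held when any 1 sample was left out. With the endothelial covariate the log2 fold changes stayed at 0.43 and -0.45 and missed the threshold (edgeR adjusted p = 0.0890 and 0.0694).

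Igf2, Igf2r and Grb10 act on the insulin-like growth factor pathway. Of 21 other genes of that pathway 14 were tested, 3 were called higher and 1 lower in edgeR (10.2% and 8.64% over all tested genes), and the median log2 fold change was -0.13. Igf1, the ligand that takes over from IGF2 after birth, was at 38.3, 34.3, 23.5, 44.1 and 29.0 CPM in heterozygotes 1 to 5, and its values in knockouts 1 to 5 were 49.1, 60.2, 66.4, 72.0 and 60.8 CPM. The groups were apart (edgeR adjusted p = 0.00135, log2 fold change 0.86 with an SE of 0.153). Irs1, which encodes the docking protein below the receptors, was at 77.1 to 120 CPM in the heterozygotes and at 149 to 189 CPM in the knockouts (edgeR adjusted p = 0.000812, log2 fold change 0.72 with an SE of 0.119). Its partner Irs2, named after its values were seen, went the other way without passing (edgeR adjusted p = 0.191, log2 fold change -0.84 with an SE of 0.427), and heterozygote 3 held 336 CPM against 70.4 to 99.8 CPM in the other heterozygotes. The receptor genes Igf1r and Insr, named for their role, were each at a log2 fold change of 0.37 (SE 0.160 and 0.161, edgeR adjusted p = 0.122 and 0.128). Igf2bp2, an RNA-binding protein gene (edgeR adjusted p = 0.0471, log2 fold change 0.51 with an SE of 0.169), and the binding protein gene Igfbp4 (edgeR adjusted p = 0.04995, log2 fold change -0.43 with an SE of 0.143) passed narrowly, and they missed the threshold in 9 and 8 of the 10 leave-one-out fits. With the endothelial covariate they were at 0.60 and -0.17 (edgeR adjusted p = 0.137 and 0.592).

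Of 15 genes that set or keep imprints and DNA methylation, 13 were tested, and 4 were called higher and 0 lower in edgeR, as in DESeq2, beside 10.2% higher and 8.64% lower over all tested genes. At an unadjusted p below 0.05, 1 was lower, and the median log2 fold change was 0.19. The smallest p of the 4 was that of Dnmt3a, a DNA methyltransferase gene, at 105 to 148 CPM in the heterozygotes and at 159 to 188 CPM in the knockouts (edgeR adjusted p = 0.0128, log2 fold change 0.44 with an SE of 0.112). Tet2 and Tet3, which encode enzymes that oxidise methylated cytosine, and Smchd1, a chromatin gene, were at log2 fold changes of 0.48, 0.32 and 0.42 (edgeR adjusted p = 0.0264, 0.0406 and 0.0394). Tet2, Tet3 and Smchd1 missed the threshold in 4, 7 and 6 of the 10 leave-one-out fits, and Dnmt3a in 0. With the endothelial covariate Dnmt3a, Tet2, Tet3 and Smchd1 were at log2 fold changes of 0.34, 0.50, 0.41 and 0.36 and missed the threshold (edgeR adjusted p = 0.199, 0.128, 0.0757 and 0.251).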

How the data were processed

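Sequencing libraries were made from poly(A) RNA of sorted cardiomyocytes in 10 samples, 5 per group. The deposited table holds unnormalised read counts per gene, made by the authors with featureCounts 1.5.1 on mm10 with no option beyond the number of threads, per the file headers. Counting was thus without strand, and reads in more than 1 gene were left out. The submitters' processing notes name CASAVA 1.8, STAR 2.5.3a and Subread 1.5.2, while the file headers carry the output name of another aligner, so the aligner is uncertain. Libraries were made from 10 ng of RNA with 8 PCR cycles, per the labels' protocols, without molecular identifiers, so count floors (3 counts) cover counting error only. Of 14 count columns, 4 match no sample here and were not used.

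Groups were compared with edgeR 4.0.16 (R 4.3.3): filterByExpr with a minimum count of 10 and a minimum total of 15, TMM scaling, the quasi-likelihood test and Benjamini-Hochberg adjustment over 11870 genes, with calls at an adjusted p below 0.05. The SE is the log2 fold change divided by the square root of F. Log2 CPM used a prior count of 1. Levels between genes are CPM per kilobase of the deposited exon length. The fit was tested on simulated data. Alternatives were DESeq2 1.42.0, RLE scaling, library totals, no filter, a mean of at least 5 CPM, endothelial and fibroblast covariates, a replicate block and leaving out each sample. Total counts of 8086656 to 25237696 set the precision.

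The members, lists and tests were chosen with earlier results of these data known. Named were all members, Actn2 and, from each list, at most 6 called genes with the smallest edgeR p; others are marked in the text.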

Additional observations from a re-analysis of the deposited data

Results flagged for a closer look

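In 72 groups of 5 values examined, 5 had 1 sample further from the others than a gap of 0.71 of the group's range, where about 4 would be so by chance. Peg3 was at 4.873 log2 CPM in heterozygote 3, against 4.499 in the nearest sample, and passed the test without that sample. Mest was at 6.042 log2 CPM in heterozygote 4, against 5.338 in the nearest. The mean log2 CPM of the 22 tested imprinted genes elsewhere in the genome was 4.711 in heterozygote 4, against 4.541 in the nearest. Smchd1 was at 4.171 log2 CPM in heterozygote 2, below the 4.641 of the nearest. The total count of heterozygote 1 was 25237696, against 10309615 in the nearest.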

How the results depend on the processing

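Counts of calls and the log2 fold changes of the tested genes named with a test were recomputed in 10 fits that left out 1 sample and under 8 other alternatives. H19 and Meg3 fell below the filter of 5 CPM and have 7, and Dlk1 was fitted only without a filter. Ratios and marker sums were not recomputed. Leaving out 1 sample moved the count of called genes from 2241 to between 1699 and 2258, of called members from 3 to between 2 and 4, of called genes in the lists from 13 to between 9 and 13, and the log2 fold change of Actn2 from -1.39 to between -1.44 and -1.35. With the endothelial covariate 1067 genes, 6 listed genes and 2 members were called, and H19, Igf2 and Kcnq1ot1 changed sign, to log2 fold changes of 0.2195, 0.09275 and 0.06967. The cause was not tested. Scaling by library totals raised the share of calls that were higher from 54.3% to 68.9% and the median log2 fold change of all genes from 0.0023 to 0.084, with 2 members called. DESeq2 called 2625 genes and 4 members, Mest being the addition.

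The labels do not say that a replicate number marks a shared source, and not every pair of same-numbered samples deviated together, so the numbers were not taken as pairs. Same-numbered samples correlated at 0.112, -0.0124, -0.0604, 0.185 and 0.141, and only numbers 4 and 5 correlated best with their own. With the number as a replicate block, 5 members were called, adding Igf2 (log2 fold change -0.49, edgeR adjusted p = 0.0438) and Mest (-0.55, edgeR adjusted p = 0.00465), and 2182 genes. H19, Igf2, Mest and Cdkn1c were each lower in the knockout in 5 of 5 same-numbered comparisons, a description only, since the numbers were not taken as pairs. The share of all tested genes lower in 5 of 5 was not computed. For H19, heterozygote 2 and knockout 2 were at 4.17 and 4.12 CPM. Without heterozygote 3, Igf1r passed (log2 fold change 0.49, edgeR adjusted p = 0.0401). Depth limits Dlk1, at 0 to 17 reads, and H19 and Meg3, whose lowest counts were 15 and 11.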

Other observations

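Heterozygote 4, the highest heterozygote for H19, Igf2, Cdkn1c and Mest, was also the highest heterozygote for the proliferation genes Top2a (26.9 CPM, against 11.2 to 19.4 in the others) and Cdk1 (20.6 CPM, against 8.32 to 15.6), and for the slow skeletal troponin gene Tnni1, which is typical of the immature heart (196 CPM, against 103 to 161). It was not the highest for Myh7, the slow myosin heavy chain gene, at 126 CPM against 90.5 to 751. These genes were chosen after their values were seen, and their part in the members' values was not tested.

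Ddc, Grb10, Igf2r and Tnni1 were each higher in all 5 knockouts than in all 5 heterozygotes, as were 8.41% of all tested genes. Tnni1 was chosen after its values were seen, and a link between these genes was not tested. Tnni1 was at 103 to 196 CPM in heterozygotes and 832 to 1455 CPM in knockouts (log2 fold change 2.97, SE 0.196, edgeR adjusted p = 3.49e-07).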
